A study of Mus musculus with 9 samples.

Results

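Taar2, Taar3, Taar4 and Taar5 are trace amine-associated receptor genes that stand next to each other at one end of the mouse Taar cluster, and each is present as a single copy. They were taken by symbol as 4 of the 24421 genes in the count table, and 4 of the 14 Taar genes that are used in olfaction. Their RNA was measured in the whole main olfactory epithelium (MOE), the nasal tissue that holds the olfactory sensory neurons (OSNs), of C57BL/6 mice at postnatal day 14. There were 3 wild-type (WT) libraries, 3 libraries from mice heterozygous (het) for a deletion of TAAR enhancer 2, with 1 of 2 chromosome copies deleted, and 3 from homozygous mice (homo) with both copies deleted. The deletion was made by CRISPR-Cas9 in zygotes, a single deletion line was bred, and WT littermates served as controls. The labels give the strain as C57BL/6, while the study's reporting notes describe its mouse lines in general as being of mixed C57BL/6J and 129 background. In bulk tissue, fewer cells that express a gene and less RNA per cell cannot be told apart.

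TAARs are G protein-coupled receptors that detect volatile amines, and they are expressed by a small group of OSNs apart from the much larger group that uses odorant receptors. Each OSN expresses one receptor gene from one allele, and the neurons of one receptor are scattered through a zone of the tissue. Enhancers are DNA elements that raise transcription of genes at a distance, and TAAR enhancer 2 lies in the interval between Taar6 and Taar7a. Among the 4 receptors, TAAR3 responds to primary amines such as isoamylamine, TAAR4 to 2-phenylethylamine, a compound enriched in carnivore urine, and TAAR5 to trimethylamine, which is abundant in male mouse urine.

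All 4 genes lie on the plus strand of chromosome 10 and are annotated as protein-coding in GENCODE models of GRCm38, the genome build the authors mapped to. Taar2 (ENSMUSG00000059763) is at chr10:23938572-23941583 and has 2 exons, of 24 and 996 bases, separated by an intron of 1992 bases. Taar3 (ENSMUSG00000069708) is at chr10:23949558-23950589, Taar4 (ENSMUSG00000069707) at chr10:23960494-23961537 and Taar5 (ENSMUSG00000069706) at chr10:23970706-23971719, and each of these has 1 exon. The gaps between neighbours were 7.97, 9.90 and 9.17 kb, and all 4 lie outside the interval that holds the enhancer, chr10:23985647-23992404 between Taar6 and Taar7a. Measured from that interval, Taar5 was the nearest at 13.9 kb, followed by Taar4 at 24.1 kb, Taar3 at 35.1 kb and Taar2 at 44.1 kb.

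The label single-copy was checked against the transcripts, since near-identical genes can exchange reads. Every window of 50 bases in the coding sequences of Taar2, Taar3, Taar4 and Taar5, 1014 to 1044 bases long, was found in no other annotated gene. In the Taar7 and Taar8 genes the unique share was between 27.5 and 70.5%. Taar9 also had no shared window, and Taar6 had 99.9% unique windows. Aligned over their length, the 4 coding sequences were 51.5 to 65.2% identical to each other, whereas the Taar7 genes were 91.7 to 95.4% identical. The aligned stretch of 60 bases with the most positions identical in all 4 genes is shown, with capitals for the 23 positions at which the 4 differ. Stretches in which a given pair is more alike were not searched for. The bases shown are 172 to 231 of the coding sequence of Taar2 and Taar3, 178 to 237 of Taar4 and 181 to 240 of Taar5.
Taar2: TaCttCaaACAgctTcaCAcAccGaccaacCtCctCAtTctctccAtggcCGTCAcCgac
Taar3: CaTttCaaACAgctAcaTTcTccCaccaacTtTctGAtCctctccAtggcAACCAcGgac
Taar4: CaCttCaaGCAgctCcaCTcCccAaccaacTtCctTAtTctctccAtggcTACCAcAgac
Taar5: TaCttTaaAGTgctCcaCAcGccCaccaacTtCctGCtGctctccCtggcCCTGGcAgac
In this stretch, each pair of the 4 genes differed at 11 to 19 bases, with Taar3 and Taar4 the most alike and Taar3 and Taar5 the least. At the same stretch, bases 220 to 279, Taar7d and Taar7e differed at 0 bases and carry one sequence, in which capitals would mark nothing.
Taar7d: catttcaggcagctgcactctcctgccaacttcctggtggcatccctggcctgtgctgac
Taar7e: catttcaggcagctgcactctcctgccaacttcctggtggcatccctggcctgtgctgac
The counts of Taar2 to Taar5 therefore rest on sequence of their own.

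RefSeq windows of 300 bases (GRCm38.p6), which run from 250 bases before to 50 bases after the annotated gene start, were matched for 3 of the 4 genes, Taar2, Taar3 and Taar5. In all 3 the annotated start is the start codon, so these windows do not mark a measured transcription start. A homeodomain core, TAATTA on either strand, was in none of the 3 windows and in 5.29% of the 32851 windows of all genes. The Ebf palindrome core, CCCNNGGG, was likewise in none of the 3 and in 13.7% of all windows. A TATA box was searched for by the letters TATAAA on either strand. It was in the windows of Taar2 and Taar5 and in 13.6% of all windows, and in Taar5 it ended on the first base of the start codon. These matches describe letters in the windows only.

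Depth was 20527992 to 32262005 counts per library. Levels are given as the normalized counts of the authors, or as CPM, for which each count was divided by its library's TMM-scaled total and multiplied by 1000000. The defining markers of mature OSNs (Omp, Cnga2, Gnal, Adcy3 and Stoml3) summed to 5743 to 6146 CPM in WT and 5884 to 6724 CPM in homo, so the labelled tissue carries them in every library. Of 39 markers in 12 cell type lists, 0 were called between homo and WT, with edgeR's quasi-likelihood test. In that comparison 4 of the 19775 genes tested were called, so the count of 0 is near the background. Gland markers varied widely within WT, from 2863 to 11463 CPM, and immune markers from 77.4 to 573 CPM, and their part in the differences between genotypes was not tested. Vomeronasal markers summed to at most 2.34 CPM in any library, and 2 of the 3 blood markers and 2 of the 3 vomeronasal markers were under 1 CPM in all 9.

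In WT, the 4 genes were among the less abundant olfactory Taar genes. Per kilobase of coding sequence, Taar2 had 2.67 ± 0.26 CPM per kb (SD, n = 3), Taar4 2.54 ± 0.41, Taar5 2.17 ± 0.36 and Taar3 1.54 ± 0.35, which placed them 8th to 11th of the 14 genes by mean. The ranges of Taar2 and Taar4 overlapped, as did those of Taar4 and Taar5, while every WT library had more Taar5 than any had Taar3 on this scale. In homo the order was the same, at 2.00 ± 0.23, 1.39 ± 0.23, 0.233 ± 0.186 and 0.0502 ± 0.0194 CPM per kb for Taar2, Taar4, Taar5 and Taar3. There, no neighbouring ranges overlapped. Taar2 and Taar4 then stood 4th and 5th of the 14 genes, because most of the other Taar genes were lower in homo, and Taar5 and Taar3 stood 10th and 12th. The plot of levels by genotype shows these values before division by length.

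**Figure D1:**
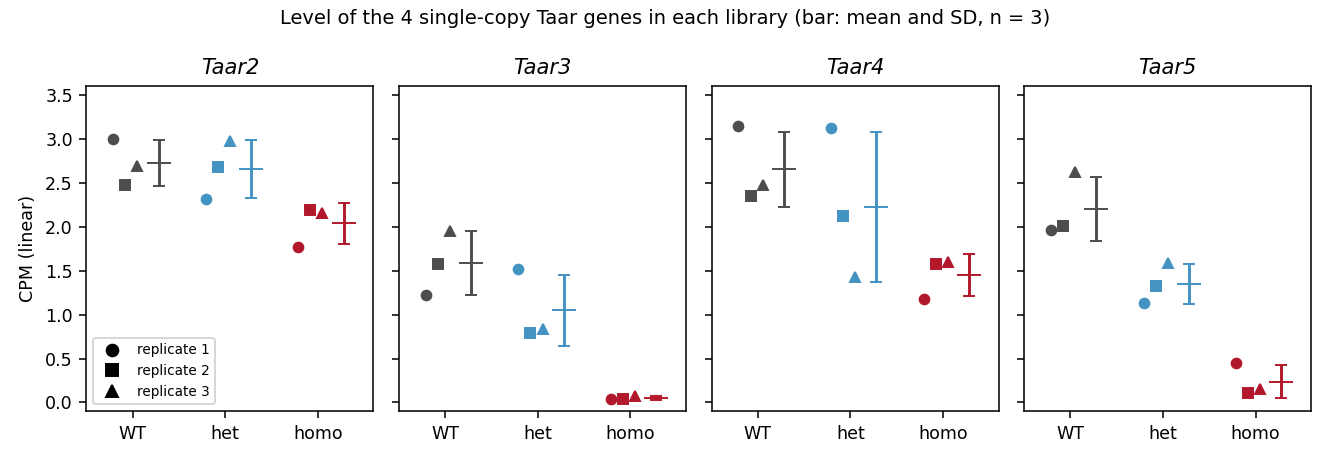
CPM of Taar2, Taar3, Taar4 and Taar5 (linear axis) in each of the 9 libraries by genotype, with symbols for the replicate number and bars for the mean and SD of 3 libraries. All homo libraries lie below all WT libraries for each gene, and Taar3 in homo lies between 0.0359 and 0.0743 CPM.

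Taar3 showed the largest loss of the 4 genes. WT libraries held 31.0, 40.0 and 49.4 normalized counts, het libraries 38.2, 20.0 and 21.2, and homo libraries 1.14, 0.904 and 1.87. The homo values came from 1, 1 and 2 reads, against 25, 51 and 53 reads in WT. Homo was far below both other genotypes without overlap, and het replicate 1 lay within the WT range while the other 2 het libraries lay below it. The mean level was 3.27% of WT in homo and 66.0% in het. From the summed reads, 4 against 129, homo was 31.0-fold lower than WT, with a 95% exact counting interval of 11.8- to 116-fold that covers counting error only. The fitted log2 fold change of homo against WT was -4.81 (SE 0.59, adjusted p = 0.0203, by the quasi-likelihood test of edgeR, with Benjamini-Hochberg adjustment over all genes tested), so Taar3 fell by the criteria of adjusted p under 0.05 and fold change over 1.5. Over the alternatives run, the adjusted p ranged from 1.73e-05 to 0.213. It stayed under 0.05 without WT replicate 1 or het replicate 1, and passed 0.05 on leaving out any one of the other 7 libraries (0.0565 to 0.211), with limma-voom (0.120), with only the 2 genotypes compared (0.122) or without the 3 libraries of number 1 (0.213), although the log2 fold change stayed between -5.14 and -4.52.

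Taar5, the trimethylamine receptor, had the next largest difference. Normalized counts were 49.6, 51.0 and 66.1 in WT, 28.7, 33.4 and 40.3 in het, and 11.4, 2.71 and 3.74 in homo, from 10, 3 and 4 reads. The 3 genotypes did not overlap, a pattern whose share over all genes was not computed. Every het library lay below every WT library only for Taar5 among the 4 genes, a pattern of 1.95% of all genes. Mean levels were 61.3% of WT in het and 10.8% in homo. Homo replicate 1, at 0.453 CPM, lay between the other homo libraries (0.108 and 0.149) and the lowest het library (1.14). Homo against WT gave a log2 fold change of -3.24 (SE 0.47), which did not pass the adjusted threshold (edgeR adjusted p = 0.201, unadjusted p = 5.09e-05). It passed in 1 of the 9 leave-outs, without homo replicate 1, with a log2 fold change of -4.05 and an edgeR adjusted p of 0.0347. Without all 3 libraries of number 1 the values were -4.13 and 0.213, again not passing. With DESeq2 the log2 fold change was -3.29 and the adjusted p 5.44e-07, the lowest over the alternatives, which reached 1. Homo replicate 1 was at 23.1% of WT replicate 1. The mean of homo replicates 2 and 3 was at 5.54% of that of the same WT numbers. The first value sets 1 library against 1, and homo and WT libraries of the same number did not all deviate together.

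Taar4, the receptor for 2-phenylethylamine, was lower in homo by a smaller margin. Its normalized counts were 79.4, 59.6 and 62.4 in WT, 78.9, 53.4 and 36.3 in het, and 29.6, 39.8 and 40.2 in homo. The homo libraries lay below all WT libraries, but het spanned both, from nearly the highest WT value to below the highest homo value. Mean levels were 83.7% of WT in het and 54.7% in homo. The log2 fold change of homo against WT was -0.86 (SE 0.30, edgeR adjusted p = 1, unadjusted p = 0.0194), which did not pass the threshold. Homo replicate 1, the lowest homo library, was at 37.5% of WT replicate 1, the highest WT library. The means of numbers 2 and 3 gave 65.9%, and the first value again rests on 1 library per genotype.

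Taar2, the gene farthest from the interval that held the enhancer, differed least. Its normalized counts were 75.7, 62.7 and 68.0 in WT, 58.6, 67.7 and 75.5 in het, and 44.5, 55.1 and 54.3 in homo. WT and het covered nearly the same range, and the homo libraries lay below both. Mean levels were 97.7% of WT in het and 74.9% in homo. The log2 fold change of homo against WT was -0.41 (SE 0.20), with a 95% interval of -0.86 to 0.04, and did not pass the threshold (edgeR adjusted p = 1, unadjusted p = 0.0674). Homo replicate 1 was at 59.1% of WT replicate 1, with 1 library each, and the means of numbers 2 and 3 gave 84.1%.

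In the comparison of homo with WT, 1 of the 4 genes was called lower, Taar3, where 0.0202% of the 19775 genes tested were called lower (4 genes, the others being Taar6, Taar7a and Taar9). The median log2 fold change of the 4 genes was -2.05, beside a median near 0 over all genes. For all 4 genes, every homo library lay below every WT library in CPM, a pattern seen in 2.71% of all genes tested. DESeq2 called 2 of the 4 lower, Taar3 and Taar5, where it called 0.0276% of all genes lower.

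Loss of 1 copy left no gene past the threshold. In het against WT, 0 of the 4 genes were called, as were 0% of all genes tested, also with DESeq2, and limma-voom called 0 of the 4. An unadjusted p under 0.05 in edgeR was found for 0 of the 4 and for 1.28% of all genes, so the count of 0 is near the background. On the log2 scale Taar2 differed by -0.03 (SE 0.20), Taar3 by -0.61 (SE 0.35), Taar4 by -0.26 (SE 0.30) and Taar5 by -0.70 (SE 0.39). The intervals were wide, reaching from -1.58 to 0.17 for Taar5, so that a fall of the size seen in the het means was not resolved at this number of libraries. Every het library lay below every WT library for 1 of the 4 genes, Taar5, a pattern of 1.95% of all genes. Among WT and het libraries of the same number, which deviated together over all genes, het had the lower CPM in 3 of 3 pairs for Taar5 and Taar4, 2 of 3 for Taar3 and 1 of 3 for Taar2. In the pair of number 1 the Taar4 levels were 3.12 and 3.14 CPM. The direction of Taar2 turned on single libraries, and its log2 fold change was 0.058 without WT replicate 1, 0.058 without het replicate 1 and 0.13 without the 3 libraries of number 1.

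The second deleted copy was examined by setting homo against het, with the same homo libraries. Taar3 differed by -4.20 on the log2 scale (SE 0.59, edgeR adjusted p = 0.0553), Taar5 by -2.54 (SE 0.47, adjusted p = 1), Taar4 by -0.60 (SE 0.31) and Taar2 by -0.38 (SE 0.20). None of the 4 genes was called, where 0.00506% of all genes were (Taar6). DESeq2 called 2 of the 4, Taar3 and Taar5, and 0.023% of all genes, and the same 2 had an unadjusted p under 0.05 in edgeR, as did 0.662% of all genes. Taar3 was on the threshold, with adjusted p = 0.0487 on library totals and 0.0464 without the filter on low counts, in a range of 0.00173 to 0.940 over all alternatives. All homo libraries lay below all het libraries for Taar2, Taar3 and Taar5, but not for Taar4, a pattern found in 1.81% of all genes. In the test for a difference between any of the genotypes, the adjusted p was 0.0547 for Taar3 and 0.726 for Taar5, and again 0 of the 4 were called where 0.00506% of all genes were. In that test DESeq2 called Taar3 and Taar5 and 0.0276% of all genes, and both had an unadjusted p under 0.05 in edgeR, as did 1.39% of all genes.

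**Figure D2:**
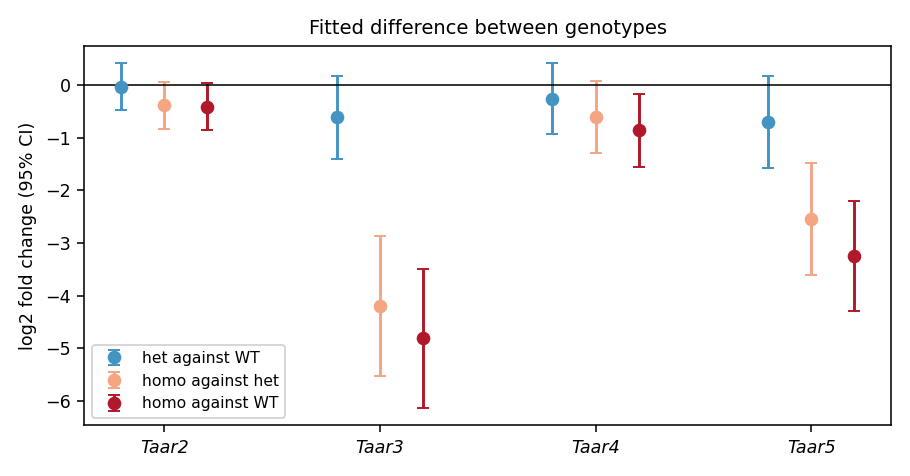
Fitted log2 fold change with its 95% confidence interval for each gene in 3 comparisons: het against WT, homo against het and homo against WT. The intervals of Taar3 and Taar5 exclude 0 in both comparisons with homo, that of Taar4 does so in homo against WT only, and all 4 intervals of het against WT include 0.

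Because the genotypes are ordered by the number of intact copies, the levels were also tested for a fall over WT, het and homo with an exact two-sided Jonckheere-Terpstra test, in which the smallest possible p is 0.00119. Taar5 gave this smallest p, Taar3 p = 0.00357, Taar2 p = 0.0214 and Taar4 p = 0.0417 (4 exact tests, unadjusted). The share of all genes that would pass this test was not computed. The test does not ask for a fall at each step, and WT and het overlapped in all but Taar5. Het means were 97.7% of WT for Taar2 and 83.7% for Taar4. The fall of Taar3 and Taar5 stayed under 0.05 on leaving out any single library. That of Taar2 did not hold without WT replicate 1, het replicate 1 or any one of the 3 homo libraries (exact p = 0.0607 each), nor on library totals (exact p = 0.0738). That of Taar4 held only without het replicate 1 or het replicate 3 among the 9 leave-outs (0.0607 or 0.114 otherwise). Without the 3 libraries of replicate number 1, p was 0.333 for Taar2 and 0.178 for Taar4.

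Whether the 4 genes differed from each other in their response was tested with the ratio of 2 genes within a library. Library size cancels in this ratio apart from the 0.5 added to each count, which weighs most where counts are low. Of the 6 pairs, 3 changed with genotype at an adjusted p under 0.05 (exact Jonckheere-Terpstra test, adjusted over the 6 pairs). The log2 ratio of Taar2 to Taar5 was 0.60, 0.30 and 0.04 in WT replicates 1, 2 and 3. Het libraries had 1.01, 1.01 and 0.90, and homo libraries 1.91, 4.14 and 3.70. The ratio rose without overlap from genotype to genotype (exact p = 0.00119, adjusted p = 0.00714), and stayed past the threshold on leaving out any single library (adjusted p 0.0107 to 0.0214). The log2 ratio of Taar2 to Taar3 averaged 0.79 ± 0.43 over the WT, 1.38 ± 0.67 over the het and 4.87 ± 0.43 over the homo libraries (SD, n = 3, exact p = 0.00952, adjusted p = 0.0190). For Taar3 to Taar4 the values were -0.75 ± 0.52, -1.06 ± 0.32 and -4.38 ± 0.44 (n = 3, exact p = 0.00952, adjusted p = 0.0190). The last 2 results had an adjusted p of 0.0571 without WT replicate 3, het replicate 2 or any one of the homo libraries, and Taar3 to Taar4 also without WT replicate 2. The log2 ratio of Taar2 to Taar3 was 4.08 higher in homo than in WT. With 1 added to the counts this difference was 3.74, and with nothing added 4.56.

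The remaining pairs did not pass with all libraries and 0.5 added. The log2 ratio of Taar4 to Taar5 was 2.49 higher in homo than in WT (exact p = 0.0738, adjusted p = 0.0886), with het libraries spread from -0.15 to 1.44, and passed without het replicate 3 (adjusted p = 0.0429). Taar3 to Taar5 fell from -0.48 ± 0.17 in WT to -1.63 ± 1.04 in homo (n = 3, exact p = 0.0417, adjusted p = 0.0625), and passed with nothing added to the counts (adjusted p = 0.0321) or without het replicate 1 (adjusted p = 0.0161), with -2.81 in homo replicate 1 and -1.22 and -0.85 in the other 2. Taar2 to Taar4 was 0.04 ± 0.10 in WT, 0.32 ± 0.74 in het and 0.49 ± 0.08 in homo (n = 3, exact p = 0.123, adjusted p = 0.123). In that pair, every homo library (0.43 to 0.58) lay above every WT library (-0.07 to 0.12), and het reached both below and above.

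**Figure D3:**
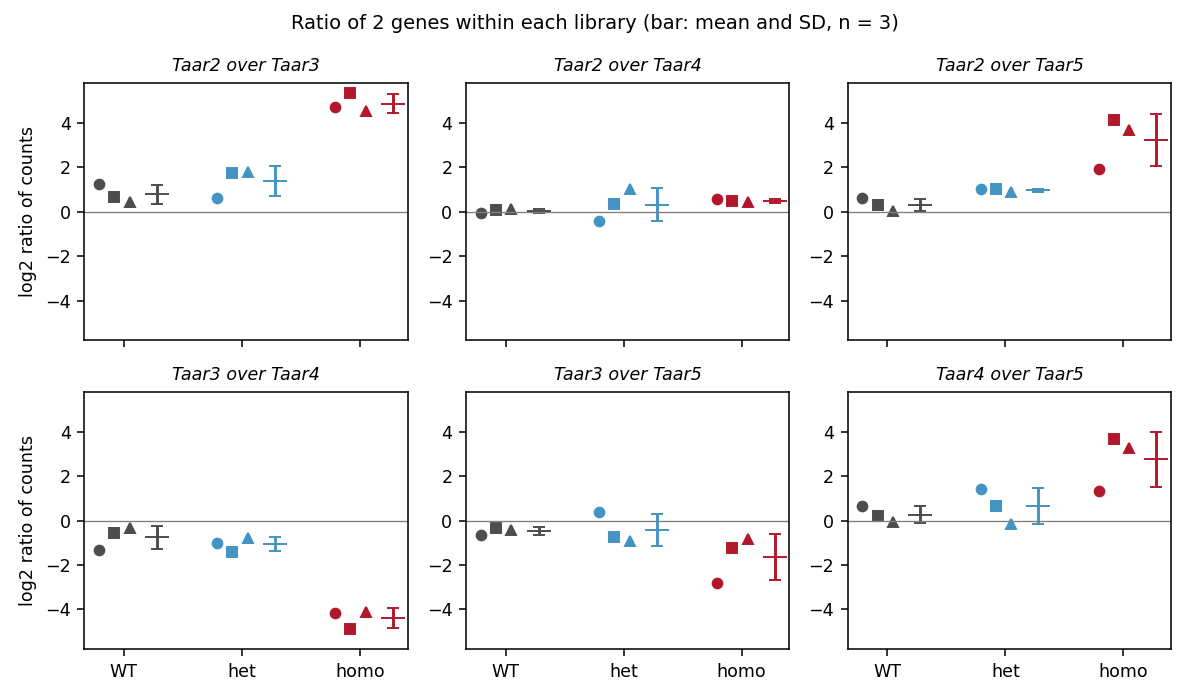
Log2 ratio of the counts of 2 genes in each library (0.5 added to each count), for the 6 pairs, by genotype, with symbols for the replicate number as in the plot of levels and bars for the mean and SD. Taar2 over Taar3 and Taar2 over Taar5 are highest and Taar3 over Taar4 lowest in homo, while Taar2 over Taar4 stays between -0.43 and 1.05.

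Each het level was set beside the midpoint of the WT and homo levels, where a gene would lie if each intact copy contributed alike. Het was above that midpoint for all 4 genes, by 0.16 on the log2 scale for Taar2 (SE 0.17), 0.34 for Taar3 (SE 0.34), 0.11 for Taar4 (SE 0.26) and 0.15 for Taar5 (SE 0.37). Each 95% interval included 0. Without het replicate 1, Taar3 was at -0.015 and Taar4 at -0.21, so the direction of these 2 genes rested on that library.

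Summed over the 4 genes, WT libraries had 9.15 ± 0.67 CPM, het libraries 7.27 ± 0.71 and homo libraries 3.78 ± 0.29 (SD, n = 3), so that het had 79.4% and homo 41.3% of the WT sum. The homo libraries, at 3.45, 3.91 and 3.98 CPM, were close together and less than the lowest het library (6.81). What remained was of another make-up. Taar2 took 29.7 ± 2.2% of the sum in WT and 53.8 ± 2.3% in homo, and Taar4 29.0 ± 4.3% and 38.3 ± 3.5%. Taar3 went from 17.3 ± 3.7% to 1.37 ± 0.48%, and Taar5 from 23.9 ± 2.9% to 6.55 ± 5.74%. Of all counts of the 14 olfactory Taar genes, the 4 genes held 22.9 ± 3.5% in WT, 20.9 ± 3.9% in het and 18.6 ± 1.2% in homo. The range of het overlapped those of both WT and homo, while every homo library lay below every WT library. These sums and shares are given without a test.

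**Figure D4:**
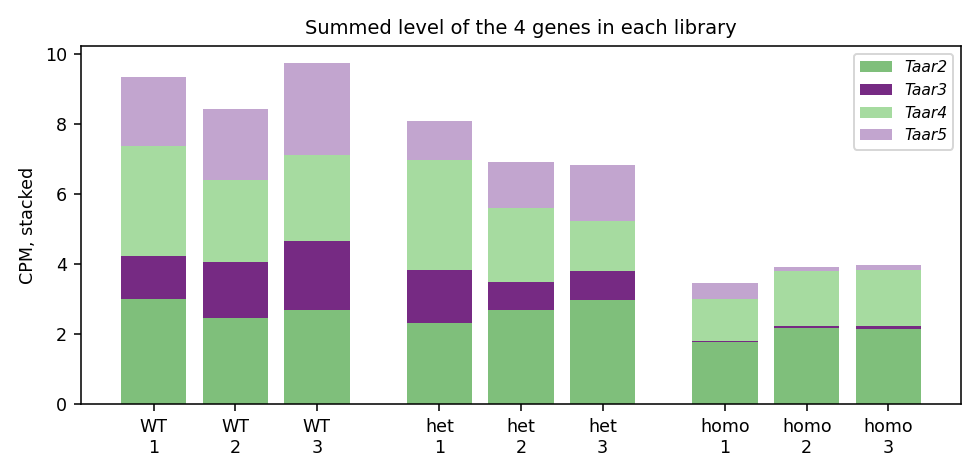
Stacked CPM of the 4 genes in each library, from 0, with libraries named by genotype and replicate number. The stacks reach 8.41 to 9.73 CPM in WT, 6.81 to 8.09 in het and 3.45 to 3.98 in homo. Most of the height in homo is Taar2 and Taar4, with Taar5 at 13.2% in homo replicate 1.

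Position along the cluster did not order the 4 genes by their response. From the nearest to the farthest from the Taar6 to Taar7a interval, the homo level was 10.8% of WT for Taar5, 54.7% for Taar4, 3.27% for Taar3 and 74.9% for Taar2, so that Taar3 was lower than the gene on either side of it. Of the 10 other olfactory Taar genes, 3 were called lower in homo against WT, 0 in het against WT and 1 in homo against het, and 0 were called higher. Over all genes tested, 0.0202%, 0% and 0.00506% were called lower in these comparisons, so the 0 in het against WT is at the background. The fitted log2 fold changes of the 10 genes in homo against WT had a median of -2.37, and 8 of the 10 were negative. Taar6 and Taar9, the other genes with nearly or wholly unique sequence, had 10.2% and 9.37% of the WT level in homo, close to Taar5 and between Taar3 and Taar4. At the other end of the range, Taar7b and Taar7d had 104% and 107% of WT, above all 4 genes, and these share sequence with the other Taar7 genes.

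**Figure D5:**
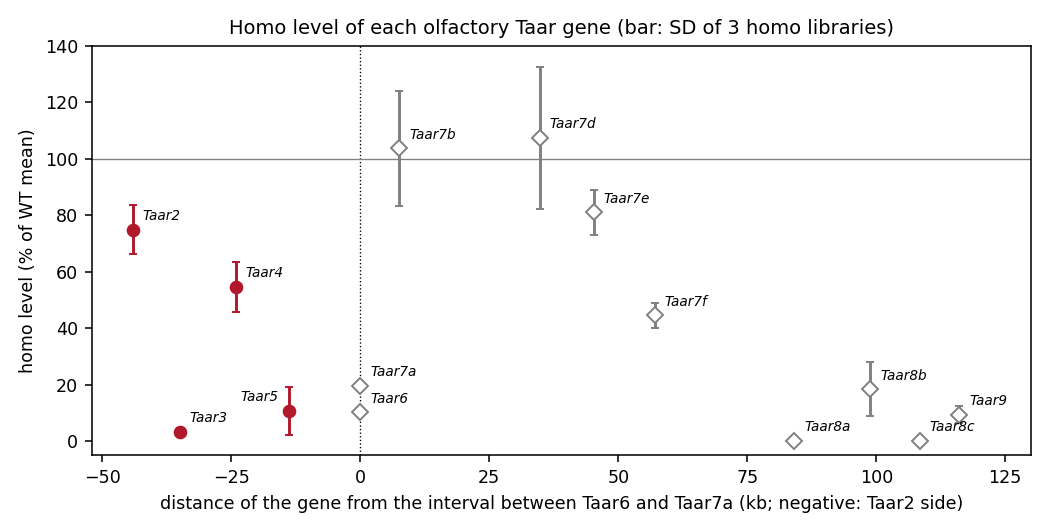
Mean homo level of each of the 14 olfactory Taar genes as a percent of the WT mean (linear axis), against the distance in kb of the gene from the interval between Taar6 and Taar7a, with bars for the SD of the 3 homo libraries. Filled circles are Taar2, Taar3, Taar4 and Taar5, which alternate between high and low along the axis, and open diamonds are the other Taar genes.

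Genes that TAAR and odorant receptor neurons use in common were set beside the 4 genes. Over the 19775 genes tested, edgeR called 4 in homo against WT, 0 in het against WT and 1 in homo against het. Counts of 0 in the short lists below are therefore near the background. Of 15 genes of olfactory signalling (the G protein subunit Gnal, the cyclase Adcy3, the channel subunits Cnga2 and Cnga4, the receptor transporters Rtp1 and Rtp2 and others), 0 were called in any comparison by edgeR, and their log2 fold changes in homo against WT were 0.03 to 0.23. The smallest unadjusted p in that comparison was 0.238. Of 7 transcriptional regulators (Lhx2, Ldb1, Emx2 and Ebf1 to Ebf4), 0 were called, with 0.02 to 0.13. The dorsal zone markers Acsm4 and Nqo1 and the ventral zone markers Ncam2 and Nfia were between 0.00 and 0.21, and 0 of these 4 were called, with a smallest unadjusted p of 0.0985.

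The genes whose log2 CPM over the 9 libraries was most like each of the 4 were looked up among 17079 genes, as a description in which the libraries share their genotype and no p is given. For Taar3 they were Taar6 (r = 0.96), Taar9 (0.96) and Neurl2 (0.94), and for Taar5 Taar9 (0.96), Ttc16 (0.96) and Taar6 (0.96). Taar3 and Taar5 were also alike (0.93), at rank 5 and 6 of each other's lists. For Taar2 they were 9130019P16Rik (0.94), Echdc3 (0.91) and Tac1 (0.89), and for Taar4 Pex26 (0.91), Endog (0.90) and Rab17 (0.87). No Taar gene was among these, but some ranked shortly after them. With the other Taar genes in the search, r of Taar2 ran from 0.09 (Taar7b) to 0.83 (Taar6, rank 13). For Taar4 it ran from -0.40 (Taar7b) to 0.80 (Taar3, rank 17). Taar2 and Taar4 had r = 0.52 with each other.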

How the data were processed

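Whole MOE RNA was sequenced in 9 libraries from strand-specific, polyA-selected preparations. Per the labels and methods, the authors trimmed reads with Trimmomatic 0.36, mapped them to mm10 (GRCm38) with HISAT2 2.1.0 and deposited raw counts per gene from featureCounts (Subread 1.6.2). The gene annotation, the strand setting and the treatment of multiply mapped reads are not given in the sources used here. The second deposited table holds a signal, the authors' normalized counts. These are raw counts divided by 1 DESeq2 (1.20.0) size factor per library (factors 0.806 to 1.28). The division was checked on genes listed once in both deposited tables, wherever the normalized count was above 0. Genotype and replicate came from the sample titles.

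Raw counts were tested with edgeR 4.0.16 in R 4.3.3 (quasi-likelihood test, TMM, at least 10 counts over the 9 libraries, 19775 genes, 1 spread estimate for all libraries), and a gene was called at an adjusted p under 0.05 and a fold change over 1.5. The study's own tool, DESeq2 (1.42.0 here), limma-voom (3.58.1), other scalings and filters, and leaving out libraries were alternatives. The fit was tested on simulated data. Trends and ratios were tested exactly in scipy 1.17.1, with 0.5 added to counts for ratios only. Coding sequences were aligned with mafft 7.526. The likeness search used log2(CPM + 0.5) of tested genes with a mean of at least 0.5 CPM. Depth of 20527992 to 32262005 counts left 1 to 80 counts per gene and library here, and the count-ratio interval of Taar3 covers counting error only, since the reads carry no molecular identifiers. Intervals of fitted values include the spread between libraries. The members and lists were chosen with earlier results of these data known. All 4 genes are named in every comparison.

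The labels do not explain the replicate numbers, which were taken as pairing where samples of the same number deviated together (correlation over 0.1 for every pair, over 16156 genes). This held between WT and het (0.669, 0.454 and 0.616), where the blocked fit changed no call.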

Additional observations from a re-analysis of the deposited data

How the results depend on the processing

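No alternative turned the direction of Taar3, Taar4 or Taar5 in any comparison run, nor that of Taar2 in homo against WT or het, and the log2 fold change of Taar2 in het against WT was -0.12 to 0.058 over the leave-outs, positive without WT replicate 1 or het replicate 1, and 0.13 without the 3 libraries of number 1, the last chosen after seeing the data. In homo against WT the number of the 4 genes called was 1, and it was 0 with limma-voom, with only the 2 genotypes compared and without the 3 libraries of number 1, 2 with DESeq2, and 0 to 1 over the leave-outs. In homo against het it was 1 on library totals, without the low-count filter and with the newer quasi-likelihood estimate (added after seeing the data), 2 with DESeq2 and 0 over the leave-outs. For any genotype it was 1 with the newer estimate and 2 with DESeq2. For het against WT it was 0 under all 20 alternatives. The trend passed for 2 of the 4 genes without the 3 libraries of number 1, and for 2 to 4 over the leave-outs. Ratios passed in 4 pairs with a pseudocount of 0, in 3 with 1 and in 1 to 4 over the leave-outs, and het was above the mean of WT and homo for 2 to 4 genes. The summed level was 75.0 to 82.0% of WT in het and 39.7 to 43.1% in homo. With numbers as a replicate block, 0 of the 4 genes were called in homo against WT (Taar3 log2 fold change -4.82, adjusted p = 0.0600), and the block moved no other call. Same-numbered homo libraries did not all deviate with WT (0.506, 0.290 and -0.108) or het (0.779, 0.298 and 0.0947), and not every library correlated best with its own number, so those samples share only a number. The cause of these changes was not tested. Taar3 in homo rests on 4 reads in all, fewer than 3 in each library, which limits the precision of its fold.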
